A study of Mus musculus with 40 samples.

Results

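The Pax genes encode transcription factors that bind DNA through the paired domain and that mark, in the early embryo, the pharyngeal pouches, the somites, the neural tube and the primordia of the kidney, the ear and the eye. The 7 genes Pax1, Pax2, Pax3, Pax6, Pax7, Pax8 and Pax9 were taken by their symbols from the 26411 genes counted in whole mouse embryos at embryonic day 9.5 (E9.5), and all 7 were among the 14183 protein-coding genes that passed the filter on low counts. Transcripts of 2 of the 7 genes, Pax2 and Pax6, were lower in embryos without functional KAT6A than in wild-type embryos, and no member passed that test in the other 4 mutant genotypes. The Pax6 call held in 1 of 8 fits that left out a library, and DESeq2 also called Pax1 lower in Kat6a-/- embryos and in embryos with point mutations in both KAT6A and KAT6B. The remaining 2 genes of the family were Pax5, which also passed the filter and is given beside the members, and Pax4, which had at most 3 counts in any embryo.

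KAT6A and KAT6B are related chromatin regulators that carry a lysine acetyltransferase domain, and the design asked whether loss of that enzymatic activity changes gene expression as much as loss of the gene. All embryos were on a C57BL/6 background, and 6 genotypes were sequenced with 4 embryos each, 24 libraries in all. WT embryos carried wild-type alleles of both genes. Kat6a-/- embryos were homozygous for the cfd allele of Kat6a and wild type for Kat6b, and Kat6b-/- embryos were homozygous for the dec allele of Kat6b and wild type for Kat6a. Kat6aE/E embryos were homozygous for the G656E change in KAT6A with wild-type Kat6b, Kat6bE/E embryos for the G577E change in KAT6B with wild-type Kat6a, and Kat6aE/E;Kat6bE/E embryos for both changes. The point mutations were made with Cas9 and replace a glycine of the acetyl-CoA binding site, so that a full-length protein can still be made. The mutations were present from conception in every cell of the embryo, and RNA came from the whole embryo. In such bulk samples, fewer cells of a type and less RNA per cell cannot be told apart.

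The 24 libraries held between 8401990 and 23339359 counts, with a median of 15317052.5, and the embryos came from 17 litters. The null alleles lack only part of the exons, so gene-wide counts do not check the labels: Kat6a measured 169 to 186 CPM (counts scaled to a common library total) in WT and 160 to 171 CPM in Kat6a-/- embryos, and Kat6b measured 38.2 to 42.6 CPM in WT and 52 to 58.3 CPM in Kat6b-/- embryos. The study describes the embryos as male, but Xist, the RNA that coats the inactive X chromosome of female cells, had 7934 counts in Kat6a-/- replicate 2, 12117 in Kat6b-/- replicate 2 and 16195 in Kat6b-/- replicate 3, against at most 6 in the other libraries. Y-linked genes had 3, 1 and 4 counts in these libraries and 1454 to 3654 in the others. By these counts the 3 embryos were female and all WT embryos male, so sex was not balanced between WT and the null genotypes. Fold changes of the members in Kat6a-/- and Kat6b-/- embryos are therefore also given without these 3 libraries. Values of tissue lists, neighbouring genes and overlapping genes are given with all libraries only. Members were compared between genotypes with limma on the log2 scale, with 4 surrogate variables and the litter as a random block, and false discovery rates (FDR) were computed over all 14183 genes. The 5 comparisons with WT share the same 4 WT libraries, and the comparisons with a null genotype share its libraries as well.

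The family arose by duplication, and the paralogs that mark the same tissues share stretches of coding sequence, so it was checked how far reads could be assigned to the wrong member. The sequences below are the longest runs of identical bases between the coding sequences of the canonical transcripts of the 3 paralog pairs (GENCODE vM39, GRCm39). They are printed to show how short they are, and the untranslated parts of the transcripts were not compared.
Pax2 and Pax8, 27 bases: ggcaggtactacgagactggcagcatc
Pax1 and Pax9, 26 bases: atcctggcgcgctacaacgagaccgg
Pax3 and Pax7, 26 bases: ctggaagtgtccacccctcttggcca
The Pax1 and Pax9 run lies within exon 2 of both genes, at chr2:147207814-147207839 and chr12:56743520-56743545. The Pax2 and Pax8 run crosses the junction of exons 2 and 3 of Pax2 and of exons 3 and 4 of Pax8. The Pax3 and Pax7 run crosses the junction of exons 1 and 2 in both genes. The longest run between members of different pairs was 20 bases, in Pax8 and Pax9. Each run is shorter than a sequenced read, so reads that span it also hold bases that differ between the paralogs.

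The members lie at chr2:147203845-147235215 (Pax1, forward strand), chr19:44735057-44826703 (Pax2, forward), chr1:78077904-78173771 (Pax3, reverse), chr2:105499234-105530952 (Pax6, forward), chr4:139464373-139560839 (Pax7, reverse), chr2:24309418-24365617 (Pax8, reverse) and chr12:56738552-56759607 (Pax9, forward) in GRCm39. The library kit did not mark strand, so reads from a gene and its antisense partner cannot be told apart where their exons overlap. Pax6 shares 3393 exonic bases with Elp4, an Elongator subunit gene on the other strand. Elp4 itself had a log2 fold change of -0.02 (SE 0.065, FDR 0.895) in Kat6a-/- against WT embryos, beside the lower Pax6 value described below. Pax9 shares 189 exonic bases with Slc25a21 (log2 fold change 0.08, SE 0.18, FDR 0.862, in the same comparison), Pax8 shares 680 with a long noncoding RNA of at most 1 count, and Pax1 shares 183 with Pax1dt, which had at most 13 counts. Pax2, Pax3 and Pax7 share no exonic base with another gene.

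The 200 bases before the canonical start of transcription are printed for Pax2 and Pax6, the members that passed the test in Kat6a-/- embryos, with CG dinucleotides in capitals, since CG-rich promoters are typical of developmental transcription factor genes.
Pax2, chr19:44744284-44744483, GRCm39, forward strand: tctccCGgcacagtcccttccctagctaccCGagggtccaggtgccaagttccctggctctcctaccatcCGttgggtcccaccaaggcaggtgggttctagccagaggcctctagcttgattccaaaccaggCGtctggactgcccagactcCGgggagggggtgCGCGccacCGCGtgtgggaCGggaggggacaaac
Pax6, chr2:105499034-105499233, GRCm39, forward strand: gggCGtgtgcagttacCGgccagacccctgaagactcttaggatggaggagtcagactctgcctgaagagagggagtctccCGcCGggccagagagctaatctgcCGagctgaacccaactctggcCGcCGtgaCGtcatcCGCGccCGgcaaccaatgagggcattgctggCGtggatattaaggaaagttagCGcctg
The Pax2 window held 10 CG dinucleotides and the Pax6 window 13. Of 21603 windows of the same length before protein-coding genes, 39% held at least 10 and 28.3% held at least 13, with a median of 7. The windows of the other 5 members held 6 (Pax8) to 11 (Pax9). This is a count of letters, and no file used here measured these windows.

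In WT embryos the members fell into a higher and a lower tier. Per kilobase of gene length, Pax6 measured 12.2 CPM per kb (range over 4 embryos 11.3 to 13.4), Pax3 11.9 (10.7 to 12.8) and Pax1 10.7 (9.33 to 12.2), and these 3 ranges overlapped. Pax7 followed at 3.57 CPM per kb (3.09 to 3.99), below every value of the 3 genes above it and above every Pax2 value. Pax2 at 2.52 (1.95 to 3.03), Pax8 at 2.49 (2 to 3.51) and Pax9 at 1.88 CPM per kb (1.72 to 2.1) came last, each overlapping its neighbour. Pax5, a gene of the midbrain-hindbrain boundary and of B cells, measured 2.6 CPM per kb in WT embryos and ranged from 4.62 to 32.7 CPM over the 24 libraries. The summed exons of Pax2 collected 54 to 255 counts and those of Pax8 33 to 168 counts per library, which limits how small a difference can be detected in these genes. Precision did not follow level alone. In Kat6a-/- against WT embryos the SE of the log2 fold change was 0.26 for Pax1, of the higher tier, and 0.14 for Pax9, the lowest.

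**Figure D1:**
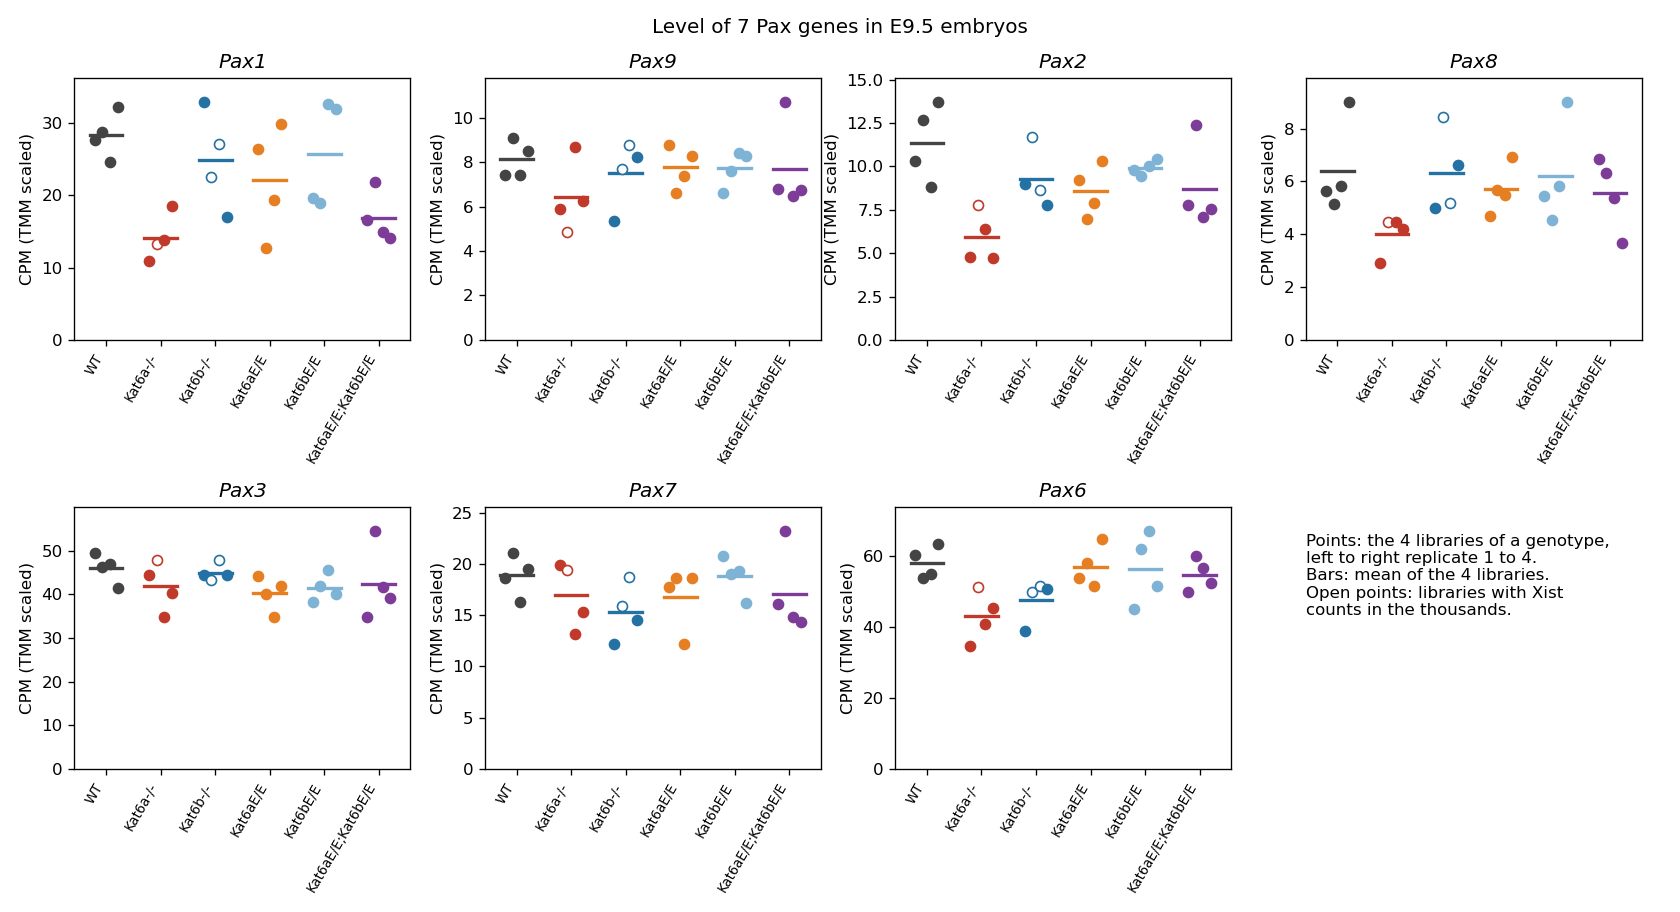
Level of each of the 7 Pax genes in the 24 E9.5 embryos, in CPM (TMM-scaled) on axes that start at 0, with 1 point per embryo in the order of replicates 1 to 4, a bar at the mean of each genotype and open points for the 3 libraries with Xist. All 4 Kat6a-/- embryos lie below all 4 WT embryos for Pax1, Pax2, Pax6 and Pax8, while Pax3, Pax7 and Pax9 overlap.

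Pax2 marks the intermediate mesoderm, the otic vesicle, the optic stalk and the midbrain-hindbrain boundary, and was the member with the clearest difference. It measured 10.3, 12.7, 8.8 and 13.7 CPM in WT replicates 1 to 4 and 4.76, 7.77, 6.41 and 4.73 CPM in the Kat6a-/- embryos. Every Kat6a-/- embryo was below every WT embryo. The means were 11.4 ± 2.23 CPM (SD, n = 4) and 5.92 ± 1.46 CPM (SD, n = 4), and the fitted log2 fold change was -0.80 (SE 0.17, 95% interval -1.14 to -0.45, FDR 0.0128), a fold of 0.576. The call was lost when WT replicate 2 was left out (log2 fold change -0.72, FDR 0.0608) and when Kat6a-/- replicate 4 was left out (-0.65, FDR 0.0629), and it held in the other 6 of 8 such fits. Without the 3 libraries with Xist the value was -1.02 (FDR 0.000973).

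Pax8, the paralog of Pax2 in the nephric lineage and the ear and a marker of the thyroid primordium, did not pass the test. Its levels were 5.62, 5.14, 5.84 and 9 CPM in WT and 2.91, 4.45, 4.46 and 4.21 CPM in Kat6a-/- embryos. These ranges did not overlap either, and the highest WT value, in replicate 4, stood above the other 3. The log2 fold change was -0.57 (SE 0.21, 95% interval -1 to -0.13, FDR 0.155), on at most 168 counts per library, and -0.66 (FDR 0.143) without the 3 libraries with Xist.

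Pax6 marks the ventral and intermediate neural tube, the forebrain, the optic vesicle and the lens placode. Its levels were 60.5, 53.9, 54.9 and 63.6 CPM in WT embryos and 34.7, 51.4, 40.9 and 45.4 CPM in Kat6a-/- embryos. The groups did not overlap, although Kat6a-/- replicate 2 lay within 3 CPM of the lowest WT embryo. The means were 58.2 ± 4.61 and 43.1 ± 7.06 CPM (SD, n = 4 each), with a log2 fold change of -0.28 (SE 0.074, 95% interval -0.43 to -0.13, FDR 0.043), a fold of 0.825. The call held in 1 of the 8 fits that left out a library. It was lost without each of WT replicates 1 to 4 (log2 fold changes -0.25, -0.28, -0.29 and -0.26, with FDR 0.155, 0.115, 0.112 and 0.122) and without Kat6a-/- replicates 1, 3 and 4 (-0.24, -0.25 and -0.31, with FDR 0.0931, 0.109 and 0.058). It was kept without the 3 libraries with Xist (-0.39, FDR 0.0253).

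Pax1 marks the pharyngeal pouches and the sclerotome, the part of the somite that forms the vertebrae. Its levels were 27.7, 28.8, 24.6 and 32.3 CPM in WT and 10.9, 13.3, 13.8 and 18.5 CPM in Kat6a-/- embryos, and the highest mutant embryo lay below the lowest WT embryo. The means were 28.4 ± 3.18 and 14.1 ± 3.18 CPM (SD, n = 4 each). The log2 fold change of -0.84 was the furthest from 0 among the members in this comparison, but its SE was 0.26 (95% interval -1.39 to -0.28) and the FDR 0.104. DESeq2 gave -0.89 with an FDR of 0.0198, and a limma fit of the 8 WT and Kat6a-/- libraries alone gave -0.98 with an FDR of 0.00585. Whether Pax1 is counted among the genes lower in Kat6a-/- embryos therefore depended on the model.

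Pax1 also varied between embryos of 1 genotype. The SD of its log2 level within genotypes was 0.38, higher than that of 97.7% of the 2060 genes of similar level. The other members also varied more than most genes of their level, from 70.6% of such genes (Pax9) to 92% (Pax6) having a lower SD. Pax5 was the most variable of the family, at 99.7%. In Kat6aE/E embryos alone Pax1 ranged from 12.7 to 29.9 CPM.

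Pax9, the paralog of Pax1 in the pouches and the sclerotome, measured 7.44, 9.09, 7.44 and 8.52 CPM in WT and 5.91, 4.85, 8.68 and 6.23 CPM in Kat6a-/- embryos. Replicate 3 of Kat6a-/- lay within the WT range and the other 3 below it. The log2 fold change was -0.27 (SE 0.14, 95% interval -0.56 to 0.02, FDR 0.335). Much of this value came from Kat6a-/- replicate 2, the lowest of the 4 and one of the libraries with Xist: it was -0.06 (FDR 0.886) without that library and -0.09 (FDR 0.837) without all 3 libraries with Xist.

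Pax3 and Pax7 mark the dorsal neural tube, the neural crest and the dermomyotome, the part of the somite that gives rise to muscle. Pax3 measured 49.6, 46.4, 47 and 41.5 CPM in WT and 44.4, 47.9, 34.9 and 40.4 CPM in Kat6a-/- embryos, and Pax7 measured 18.6, 21.1, 16.3 and 19.5 CPM in WT and 19.9, 19.4, 13.2 and 15.3 CPM in Kat6a-/- embryos. Both overlapped broadly between the genotypes. The log2 fold change of Pax3 was -0.06, with a 95% interval of -0.21 to 0.1 (FDR 0.769), and that of Pax7 was -0.07, with an interval of -0.32 to 0.18 (FDR 0.817). Without the 3 libraries with Xist the values were -0.13 (FDR 0.537) and -0.17 (FDR 0.686). For Pax3 the interval of the main fit thus reached a decrease of 0.21 on the log2 scale. This limit belongs to that model: edgeR without surrogate variables gave -0.14, and no interval was computed for it.

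Set against all genes, 2 of 7 members were called lower in Kat6a-/- embryos, where 2.64% of all genes tested were called in either direction (196 lower and 179 higher). The members' median log2 fold change was -0.28, beside a median of -0.002 over all 14183 genes. All 4 mutant embryos lay below all 4 WT embryos for 4 of 7 members (Pax1, Pax2, Pax6 and Pax8), where 6.49% of all genes did. Without the 3 libraries with Xist, 2 members were again called, Pax2 and Pax6, while Pax1 had a log2 fold change of -0.78 (FDR 0.262).

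**Figure D2:**
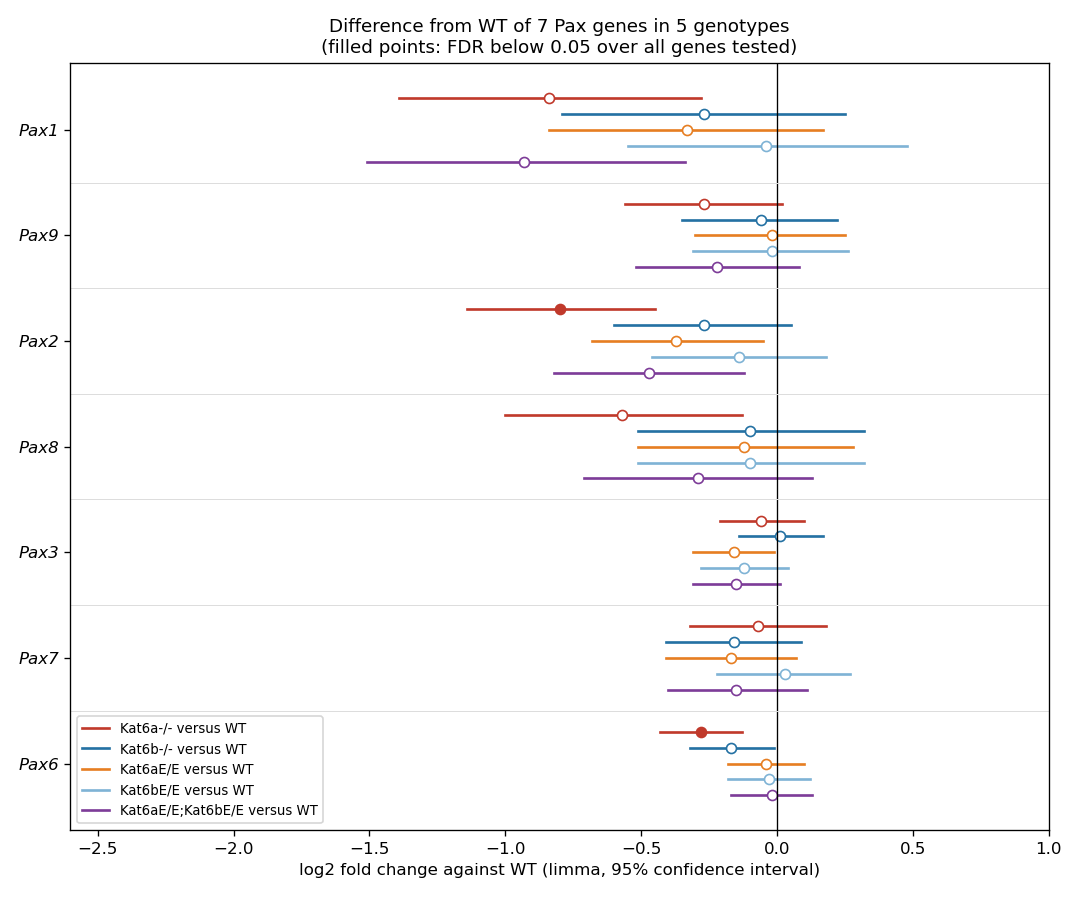
Log2 fold change of each of the 7 Pax genes against WT in the 5 mutant genotypes, with lines for the 95% intervals from limma and filled points where the FDR was below 0.05. The filled points are Pax2 (-0.80) and Pax6 (-0.28) in Kat6a-/- embryos.

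The study's question about enzymatic activity was addressed by the Kat6aE/E embryos, in which the KAT6A protein can be made but carries the changed glycine. No member was called in Kat6aE/E against WT by limma, by edgeR or by DESeq2, and 0.275% of all genes were. At an unadjusted p below 0.05, limma gave 2 members, Pax2 with a log2 fold change of -0.37 (95% interval -0.68 to -0.05, FDR 0.406) and Pax3 with -0.16 (-0.31 to -0.01, FDR 0.46). Of all 14183 genes, 1421 had such a p. Pax2 ranged from 6.94 to 10.3 CPM in these embryos, with 2 of 4 below the WT range. Pax1 was at -0.33 (95% interval -0.84 to 0.17, FDR 0.69). No member had all Kat6aE/E embryos below all WT embryos, a pattern that 2.62% of all genes showed, and the members' median log2 fold change was -0.16.

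Compared directly, the point mutant and the null of Kat6a differed in 1.6% of all genes, and 0 members were called by limma, edgeR or DESeq2. At an unadjusted p below 0.05 there were 2 members, both higher in Kat6aE/E than in Kat6a-/- embryos, beside 2214 of all 14183 genes. Pax6 had a log2 difference of 0.24 (95% interval 0.08 to 0.39, FDR 0.111). Its levels were 51.6 to 64.8 CPM in Kat6aE/E and 34.7 to 51.4 CPM in Kat6a-/- embryos. Pax8, at 4.69 to 6.94 CPM against 2.91 to 4.46 CPM, did not overlap between these groups either. The share of all genes without overlap was not computed for this comparison. Pax2 had a log2 difference of 0.43 (95% interval 0.06 to 0.8, FDR 0.234). Pax8 was at 0.45 (0 to 0.9, FDR 0.325), Pax1 at 0.5 (-0.09 to 1.09, FDR 0.402) and Pax9 at 0.25 (-0.05 to 0.55, FDR 0.429). The intervals for these members thus reach from about no difference to a difference as large as the one between Kat6a-/- and WT. Without the 3 libraries with Xist, 1 of them in the Kat6a-/- group, the Pax2 difference was 0.65 and passed the test (FDR 0.0467). With no filter on low counts that of Pax6 was 0.29 and passed it (FDR 0.0384).

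Loss or mutation of Kat6b alone was tested in the same way. In Kat6b-/- embryos 0 members were called by limma, edgeR or DESeq2, where limma called 0.508% of all genes. In limma 1 member, Pax6, had an unadjusted p below 0.05, as had 1713 of all 14183 genes. Pax6 measured 38.8, 50, 51.5 and 50.8 CPM in Kat6b-/- embryos, all below the lowest WT embryo at 53.9 CPM, and its log2 fold change was -0.17 (95% interval -0.32 to -0.01, FDR 0.359). It was the only 1 of 7 members with that arrangement, which 3.44% of all genes showed. Pax1 and Pax2 were both at -0.27 (FDR 0.717 and 0.499), with embryos on either side of the lowest WT value. In the Kat6b-/- group 2 of 4 libraries are those with Xist. Without the 3 such libraries, the number of all genes called fell from 72 to 44, still with 0 members among them. Pax6 was then at -0.24 (FDR 0.445), Pax1 at -0.44 (FDR 0.744), Pax2 at -0.45 (FDR 0.37) and Pax7 at -0.38 (FDR 0.538, against -0.16 with all libraries). Pax8 was at -0.25 and Pax9 at -0.17 in that fit, against -0.1 and -0.06, and Pax3 stayed at 0.01.

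In Kat6bE/E embryos the members lay closest to WT. Limma, edgeR and DESeq2 called 0 members and 0% of all genes there, with 0 members and 626 genes at an unadjusted p below 0.05 in limma. The log2 fold changes of the members ran from -0.14 (Pax2) to 0.03 (Pax7), with a median of -0.04. Pax2 was tight in this group, at 9.42 to 10.4 CPM, while Pax1 ranged from 18.9 to 32.6 CPM. No member separated fully from WT, as 1.14% of all genes did. Against Kat6b-/- embryos, limma called 0.0353% of all genes. No member was called by limma, edgeR or DESeq2. At an unadjusted p below 0.05 limma gave no member and 1253 of all 14183 genes. The members' log2 differences ran from -0.13 (Pax3) to 0.23 (Pax1).

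Among Kat6aE/E;Kat6bE/E embryos, Pax1 was again the member furthest from WT. Its levels were 16.6, 21.9, 15 and 14.1 CPM in replicates 1 to 4, all below the lowest WT embryo at 24.6 CPM, with a mean of 16.9 ± 3.49 CPM (SD, n = 4). The log2 fold change was -0.93 (SE 0.27, 95% interval -1.51 to -0.34, FDR 0.0849) with limma, and -0.87 (FDR 0.0209) with DESeq2. The plain difference of the mean log2 levels was -0.75. Both fits used the same surrogate variables, and the weight these gave to replicate 2, the highest of the 4 embryos, is described below. Pax1 was the 1 member whose embryos separated fully from WT, as 3.94% of all genes did.

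Limma and edgeR called 0 members in Kat6aE/E;Kat6bE/E against WT, where limma called 2.91% of all genes, and DESeq2 called 1, Pax1. At an unadjusted p below 0.05 limma gave 2 members, Pax1 and Pax2, beside 2581 of all 14183 genes. Pax2 measured 7.78, 12.4, 7.08 and 7.54 CPM, with replicate 2 within the WT range and the other 3 below it, and had a log2 fold change of -0.47 (95% interval -0.82 to -0.12, FDR 0.122). Without the 3 libraries with Xist, none of which belongs to either genotype, the Pax2 value was -0.52 and passed the test (FDR 0.0466). Pax6 stayed within 50 to 60.2 CPM, with a log2 fold change of -0.02 (-0.17 to 0.13, FDR 0.906). The surrogate variables gave replicate 2 a leverage of 0.88 and a weight of -14.3% in the mean of its own genotype, so that a higher level in that embryo lowered the fitted mean. Replicates 1 and 3, which are littermates, carried 40.2% and 46.3% of the mean, and replicate 4 carried 27.8%, so most of the fitted value came from 1 litter. No gene at all was called in it when surrogate variables were left out.

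The doubly mutant embryos were also compared with the null of Kat6a and with the sum of the single point mutants. Against Kat6a-/- embryos, 0 members were called by limma, edgeR or DESeq2, and 0.00705% of all genes by limma. Among the members Pax6 alone had an unadjusted p below 0.05, with a log2 difference of 0.25 (95% interval 0.09 to 0.42, FDR 0.249). Of all 14183 genes, 1479 had such a p. Pax1 was at -0.09 with an interval of -0.73 to 0.55, too wide to place the genotypes relative to each other. The departure from the sum of the single mutants ranged from -0.56 (Pax1, 95% interval -1.36 to 0.25, FDR 0.858) to 0.13 (Pax3, -0.1 to 0.36, FDR 0.884). No member was called in that contrast by limma, edgeR or DESeq2, no member had an unadjusted p below 0.05, and limma called 0% of all genes, with 910 at an unadjusted p below 0.05.

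Genes that mark the same tissues as the members were examined as lists, chosen with earlier results of these data known and described here by their counts and medians. The ventral and intermediate neural tube list covers more than the domain of Pax6, since it also holds floor plate genes. It held 5 of 12 tested genes called lower in Kat6a-/- embryos and none higher, with a median log2 fold change of -0.62. The floor plate factor Foxa2 fell to 4.95 ± 2.16 CPM from 11.3 ± 1.71 CPM in WT (log2 fold change -1.03, FDR 0.0114), and Nkx6-2, a progenitor homeobox gene, fell to 5.36 ± 2.45 from 13 ± 1.82 CPM (-1.05, FDR 0.016). Irx3, another progenitor homeobox gene, fell by 0.23 on the log2 scale (FDR 0.0187). The other 2 called were Dbx1 and Nkx6-1. The dorsal neural tube and neural crest list, the domain of Pax3 and Pax7, had 1 of 18 genes lower and 2 higher, with a median of 0.14. Over all genes 2.64% were called in Kat6a-/-, 2.91% in Kat6aE/E;Kat6bE/E and 0.508% in Kat6b-/- embryos against WT. Between Kat6aE/E and Kat6a-/- embryos the share was 1.6%. The counts of all lists are to be read beside these shares, and the difference between the ventral and dorsal lists was not tested. The endothelin receptor gene Ednrb was lower (-0.5, FDR 0.0153), and the dorsal neural tube genes Zic1 (0.28, FDR 0.021) and Msx2 (0.35, FDR 0.0319) were higher.

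Markers of the early neuron were read beside Pax6, since neurons arise from the neural tube. Of 10 such genes, 2 were called lower in Kat6a-/- embryos, Elavl4 (-0.48, FDR 0.0283) and Stmn3 (-0.83, FDR 0.0336), 9 were below 0, and the median was -0.43. Their summed level was 205 to 432 CPM in WT and 186 to 360 CPM in Kat6a-/- embryos, with overlap between the groups. All 10 genes passed the filter on low counts. The part of neuronal content in the Pax6 value was not tested. The eye and forebrain list had 0 of 15 genes called, with a median of -0.21, and the midbrain-hindbrain boundary list 0 of 10, with a median of 0.

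Among 17 tested genes of the pharyngeal pouches and endoderm, the territory of Pax1 and Pax9, 4 were called lower in Kat6a-/- embryos and none higher, with a median of -0.14. Tbx1, required for pharyngeal segmentation, fell to 14.3 ± 2.33 CPM from 26.8 ± 3.33 CPM (log2 fold change -0.77, FDR 0.000171). Foxa2 and Foxa1 (-0.74, FDR 0.029), transcription factors of the endoderm, were also lower. Foxa2 is counted in the neural list too, and the tissue in which it was lower cannot be told apart in whole embryos. Of the 19 genes listed, Gcm2 and Foxn1, markers of the parathyroid and thymus rudiments, had at most 3 and 4 counts and were not tested.

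The sclerotome list, which Pax1 and Pax9 also mark, had 1 of 14 genes lower in Kat6a-/- embryos (Foxc2, -0.56, FDR 0.00352) and 1 higher (Zic1), with a median of -0.2. Among Kat6aE/E;Kat6bE/E embryos, 4 of 14 were lower and none higher, with a median of -0.31, where 2.91% of all genes were called. No gene was called in this comparison without surrogate variables, and replicate 2 had a weight of -14.3% in the fit. These limits hold for the other lists in this genotype too. Uncx, a homeobox gene of the caudal sclerotome, fell to 7.9 ± 2.44 CPM from 14.7 ± 2.17 CPM (log2 fold change -1, FDR 0.00557). Nkx3-2, which is regulated by Pax1 and Pax9 in the sclerotome, was at 2.09 ± 0.755 CPM against 3.73 ± 0.645 CPM (-0.94, FDR 0.0332), and the microfibril gene Mfap2 was lower by a smaller step (-0.26, FDR 0.0128). Foxc2 was at 40 ± 9.16 CPM against 45.7 ± 4.49 CPM (-0.37, FDR 0.0445). The list of somite and presomitic mesoderm markers had 1 of 11 genes lower in each of these 2 genotypes (Lfng in Kat6a-/-, Uncx in Kat6aE/E;Kat6bE/E), with medians of 0.01 and 0.03. Its summed level was 258 to 303 CPM in WT, 224 to 307 CPM in Kat6a-/- and 262 to 306 CPM in Kat6aE/E;Kat6bE/E embryos. The summed level of somitic markers thus overlapped between these groups.

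The lists around Pax2 and Pax8 held few called genes. Of 13 intermediate mesoderm and nephric duct genes, Gfra1, the co-receptor for GDNF, was called lower in Kat6a-/- (-0.56, FDR 0.0182) and in Kat6aE/E;Kat6bE/E embryos (-0.47, FDR 0.0468), with list medians of 0.03 and 0.09. The summed level of the list was 261 to 291 CPM in WT and 263 to 281 CPM in Kat6a-/- embryos, and these ranges overlapped. The part of nephric cell content in the Pax2 value was not tested. Of 15 otic genes, 5 thyroid genes and 5 pancreas genes, 0 were called by limma in Kat6a-/- embryos, with medians of -0.15, -0.04 and -0.1. Among the homeobox and cofactor genes of the Six-Eya-Dach network, whose products act with Pax proteins in the kidney, ear and muscle, Six2 was lower (-0.6, FDR 0.00183) and Six4 higher (0.25, FDR 0.0484) of 12 genes, with a median of 0. The dermomyotome list had 2 of 14 genes higher, Six4 and the receptor gene Met (0.5, FDR 0.00744), and none lower, with a median of -0.01.

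**Figure D3:**
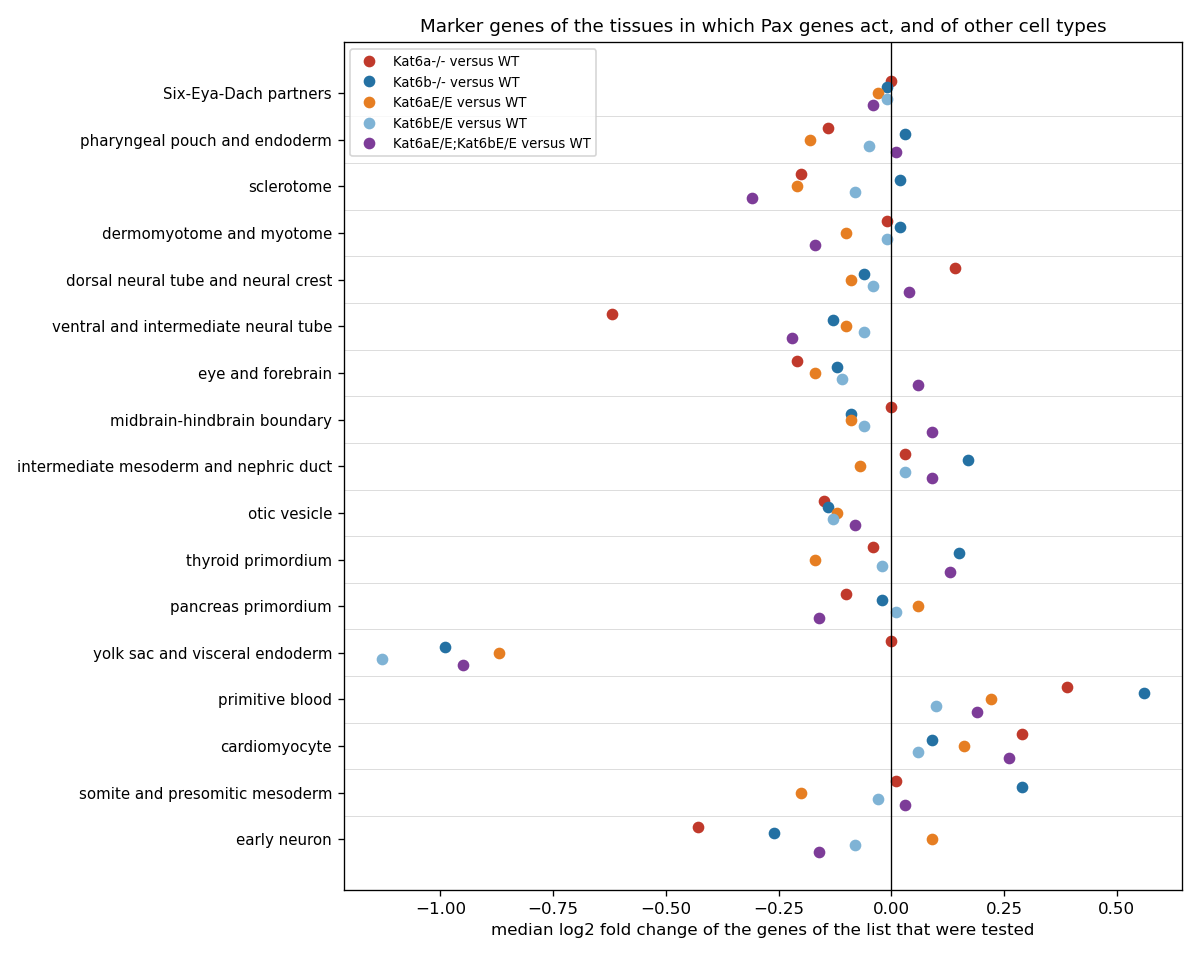
Median log2 fold change against WT of the tested genes in each tissue list, with 1 point for each of the 5 mutant genotypes, which share the WT libraries. The median of the ventral and intermediate neural tube list in Kat6a-/- embryos lies at -0.62, that of the dorsal neural tube and neural crest list at 0.14, and the yolk sac medians of the other 4 genotypes between -1.13 and -0.87.

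Lists of other cell types were read as a measure of what the embryos contained. Cardiomyocyte genes had 3 of 10 called higher in Kat6a-/- embryos (Myl3, Tnni1 and Myl2) and 2 in Kat6aE/E;Kat6bE/E embryos (Myl3 and Tnnt2), with medians of 0.29 and 0.26. Their summed level was 1030 to 1630 CPM in WT, 1110 to 1820 CPM in Kat6a-/- and 1490 to 1770 CPM in Kat6aE/E;Kat6bE/E embryos. None of 9 primitive blood genes was called in Kat6a-/- embryos, with a median of 0.39 and a summed level of 3750 to 5800 CPM in WT against 4490 to 10100 CPM. The 8 tested yolk sac genes varied widely within genotypes, with summed levels from 30.7 to 186 CPM in WT and from 4.85 to 164 CPM in Kat6a-/- embryos, and none was called in any mutant genotype against WT. The part of these differences in content in the members' values was not tested.

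In Kat6b-/- embryos the sclerotome gene Mfap2 (-0.25, FDR 0.0316) and the neuronal tubulin gene Tubb3 (-0.41, FDR 0.0316) were called, both lower. The early neuron list had a median of -0.26, with 9 of 10 genes below 0 and a summed level of 181 to 331 CPM against 205 to 432 CPM in WT, beside the Pax6 value of -0.17, and its part in that value was not tested. The medians of the primitive blood list (0.56, 0 of 9 below 0), the somite and presomitic mesoderm list (0.29, 1 of 11 below 0) and the yolk sac list (-0.99, 8 of 8 below 0) also lay away from 0 in Kat6b-/- embryos, with no gene called. In Kat6aE/E and in Kat6bE/E embryos limma called 0 genes of any list. Between Kat6aE/E and Kat6a-/- embryos, Tbx1 was higher in the point mutant (log2 difference 0.55, FDR 0.00893), as were Nkx6-2 (1, FDR 0.0322) and Nkx6-1 (0.78, FDR 0.0448) of the ventral and intermediate neural tube list, whose median was 0.53. The early neuron list had 4 of 10 genes higher, with a median of 0.58. In the dorsal neural tube and neural crest list, 3 of 18 genes were lower in the point mutant, Zic1 (-0.36, FDR 0.00635), Msx2 (-0.48, FDR 0.00857) and Msx1, and Ednrb was higher (0.57, FDR 0.00952), with 15 of 18 below 0 and a median of -0.24. Six4 (-0.29, FDR 0.0299), counted in the Six-Eya-Dach and dermomyotome lists, and the yolk sac gene Amn (-1.99, FDR 0.0101) were lower as well. Zic1 is counted in the sclerotome list too, and Tbx1 in that of the pharyngeal pouches and endoderm. Limma called 0 genes of the remaining lists.

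Members that mark the same tissue might vary together from embryo to embryo, and this was tested within genotypes, on deviations of log2 CPM from the genotype mean over the 24 embryos. Pax3 and Pax7 deviated together, with Pearson r = 0.67 (permutation test within genotypes, 100000 resamples, p = 0.00691, 0.0207 after Benjamini-Hochberg adjustment over 3 pairs) and Spearman rho = 0.61 (permutation p = 0.00851, adjusted 0.0255). Without the 2 embryos farthest from the median in Pax3, Kat6aE/E;Kat6bE/E replicates 1 and 2, r was 0.62. Pax2 and Pax8 had r = 0.46 (permutation p = 0.0395, adjusted 0.0593) and rho = 0.39 (permutation p = 0.0886, adjusted 0.0911), and r = 0.44 without 2 embryos. Pax1 and Pax9 had r = 0.32 (permutation p = 0.158, adjusted 0.158) and rho = 0.40 (permutation p = 0.0911, adjusted 0.0911), and r = 0.24 without 2 embryos. The Pax3 and Pax7 pair alone of these 3 passed the threshold after adjustment, and whether the pairs differ from each other was not tested. Within genotypes, members of different pairs reached values near that of Pax2 and Pax8 and below that of Pax3 and Pax7. As a description, the highest r was 0.48 for Pax1 and Pax2, then 0.42 for Pax2 and Pax7, 0.42 for Pax3 and Pax6 and 0.41 for Pax2 and Pax9. The lowest was -0.18, for Pax3 and Pax8. The points of a pair share a library and its depth, and litters of 1 to a few embryos did not allow the relation to be computed within litters.

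**Figure D4:**
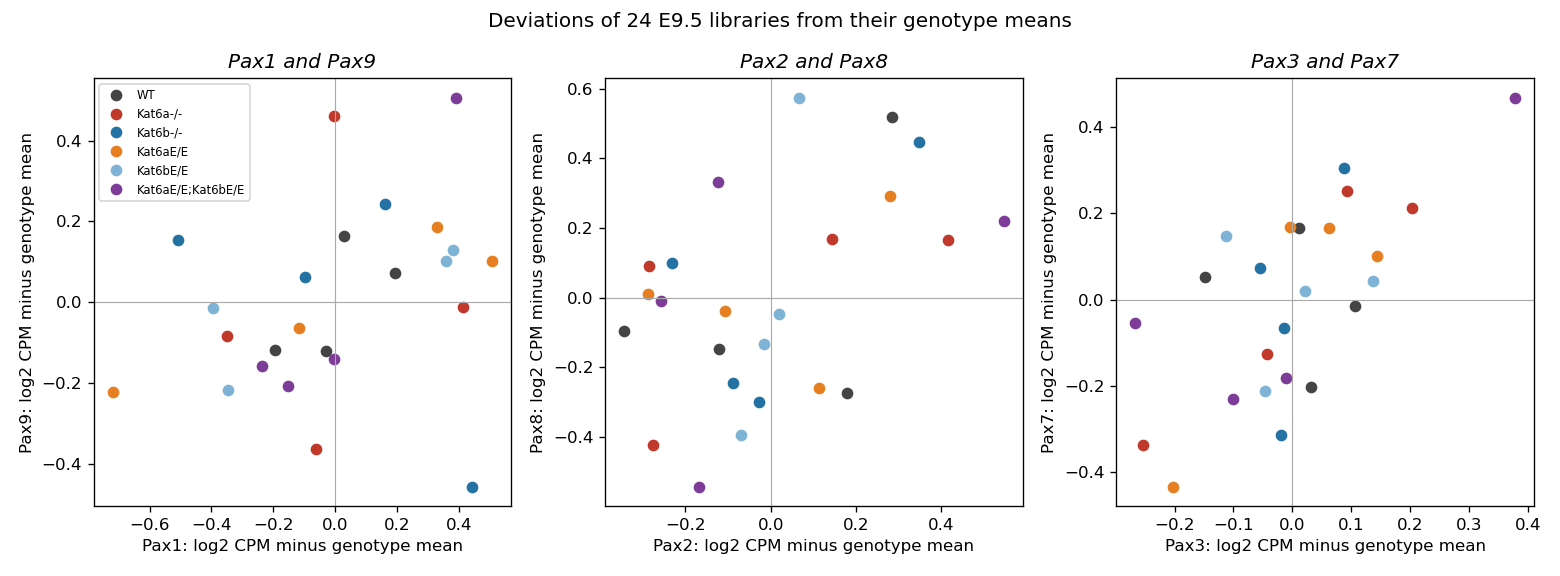
Deviation of log2 CPM from the genotype mean for the paralog pairs Pax1 and Pax9, Pax2 and Pax8, and Pax3 and Pax7, with 1 point per embryo and colours for the 6 genotypes. The cloud of Pax3 and Pax7 is drawn out along the diagonal (r = 0.67), and that of Pax1 and Pax9 is rounder (r = 0.32).

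For each member the genes with the most similar levels over the 24 embryos were listed as a description, by Pearson r of log2 CPM. Pax6 had the closest match of all, Sox2, a transcription factor of neural progenitors, with r = 0.96 and r = 0.93 after removing genotype means. It was followed by Mapk11 (0.9) and Pou3f2 (0.88), a neural POU factor gene. Pax1 was most like Ets1 (0.86), Emilin2 (0.83) and Ntn1 (0.81). Pax2 was most like Emilin2 (0.87), Ntn1 (0.87) and Wasf3 (0.81), so that Pax1 and Pax2 share 2 of their 3 closest genes. Ntn1 encodes netrin, a guidance cue made by the floor plate. Pax8 was most like Nkx2-9 (0.87), a homeobox gene of the ventral neural tube, then Tbx22 (0.78) and Zfp280d (0.74). Pax3 was most like Rbmx (0.81), Lrig1 (0.76) and Tcf4 (0.74), Pax7 like Tmem86a (0.77), Rnf122 (0.73) and Tnfaip6 (0.73), and Pax9 like Tro (0.8), Sema6d (0.79) and Cxxc4 (0.79).

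The nearest tested genes on either side of each member showed whether lower levels extended along the chromosome in Kat6a-/- embryos. Foxa2, the tested gene that follows Pax1 at 649.6 kb, was lower, as given above, and Nkx2-2, a ventral neural tube gene 167.7 kb before Pax1, was at -0.73 (SE 0.35, FDR 0.298). Nkx2-9, 78.4 kb before Pax9, was lower (-0.89, SE 0.23, FDR 0.0457). Around Pax2, Hif1an (166.3 kb before) was at 0.06 (SE 0.045, FDR 0.501) and Slf2 (92.8 kb after) at 0.11 (SE 0.051, FDR 0.286), and around Pax6, Rcn1 was at 0.07 (FDR 0.41) and Immp1l at -0.05 (FDR 0.887). The genes beside Pax2 and Pax6 were thus not called, and none of the other neighbours was.

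The second tissue of the series, fetal liver LSK cells (a blood stem and progenitor population sorted as lineage-negative, Sca1-positive and Kit-positive), served to see the members outside the tissues they mark. The cells came from fetuses at E14.5, with 4 libraries each of WT, Kat6aE/E, Kat6bE/E and Kat6aE/E;Kat6bE/E. In these 16 libraries of 12270376 to 59216547 counts, Pax1 and Pax3 had 0 counts in all 16, which allows up to 0.244 CPM in the shallowest library (3 counts, counting error only). Pax6 had at most 3 counts, Pax7 at most 8, Pax9 at most 27, Pax2 at most 28 and Pax8 at most 93. Pax5, the B-lineage member of the family, was the exception, with 0 to 2127 counts and a median of 354.5. By genotype, Pax5 measured 12.4 to 35.9 CPM in WT, 18.6 to 26.5 in Kat6bE/E, 3.28 to 20 in Kat6aE/E and 0 to 7 in Kat6aE/E;Kat6bE/E samples. These levels were scaled by the library total only, and no test was run on them. These libraries were not used in any comparison of the members.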

How the data were processed

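RNA from 24 whole E9.5 embryos and from 16 LSK samples was sequenced by the authors with an unstranded poly(A) kit. The deposited files hold raw counts of read pairs per RefSeq gene, made by the authors with featureCounts (version not given in the sources used here) on mm39, per the submitters' processing notes. Columns were assigned to groups by the sample labels, which name a litter for each embryo. Of 26411 gene IDs, 26359 matched a RefSeq gene table (GRCm38.p6, used for names and gene types only), and 20951 were protein-coding and not Y-linked. After filterByExpr, 14183 genes were tested following the study's design: TMM scaling, 4 surrogate variables (wsva), voomLmFit with litter as a random block (correlation 0.107) and robust empirical Bayes, in R 4.3.3 with edgeR 4.0.16 and limma 3.58.1. Genes were called at a Benjamini-Hochberg FDR below 0.05. Levels are TMM-scaled CPM, and log2 CPM used a prior count of 2. DESeq2 1.42.0, edgeR's quasi-likelihood test and other alternatives are given in the closing section. On data simulated for Kat6a-/- versus WT over 14101 genes, 64% of genes changed by 0.5 and 85% of genes changed by 1 on the log2 scale were recovered, with 11 false calls. The simulated counts held no litter effect and no variation shared between genes, unlike the real libraries. The changed genes were drawn at random, so these rates do not apply to the members in particular. Named genes were the 7 members, Pax4, Pax5, Kat6a, Kat6b, at most the 3 called genes of smallest p in each list and comparison, the 3 genes most alike to each member and its nearest tested neighbours. Xist, and genes named beyond these limits to complete a count, were chosen after their values were seen. The members and lists were chosen with earlier results of these data known. Replicate numbers did not pair the embryos across genotypes.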

Additional observations from a re-analysis of the deposited data

Results flagged for a closer look

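Within each genotype, the gap between the highest or lowest embryo and its nearest neighbour was divided by the range of the 4 embryos and compared with Dixon's 95% critical value for 4 samples. Of 42 combinations of member and genotype, 5 exceeded it. For independent, normally distributed values about 1 in 20 would exceed it, but the members share libraries. The share of all genes exceeding it was not computed, so the count is not read as particular to the members. Pax2 in Kat6aE/E;Kat6bE/E replicate 2 gave 0.834, at 12.4 CPM against 7.08 to 7.78 CPM in the other 3 embryos. The same embryo stood apart in Pax9, with 0.908, at 10.7 CPM against 6.49 to 6.8 CPM. Pax6 in Kat6b-/- replicate 1 gave 0.901, at 38.8 CPM against 50 to 51.5 CPM. Pax7 in Kat6aE/E replicate 3 gave 0.888, at 12.2 CPM against 17.8 to 18.6 CPM. Pax8 in Kat6a-/- replicate 1 gave 0.867, at 2.91 CPM against 4.21 to 4.46 CPM.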

How the results depend on the processing

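Of 1316 log2 fold changes recomputed under other settings, 83 had another sign, in 25 of 63 combinations of member and comparison, and 0 of these were called under either setting. The cause of each change was not tested. In Kat6a-/- against WT, Pax9 moved from -0.27 to -0.06 without Kat6a-/- replicate 2 and to -0.09 without the 3 libraries with Xist. In Kat6a-/- against WT, 1 member was called with 0 surrogate variables, with edgeR without surrogate variables and with Xist as a covariate (Pax2 each time, Pax6 then having -0.39, -0.43 and -0.3, with FDR 0.16, 0.079 and 0.0657), and 0 to 2 when a library was left out. In Kat6aE/E;Kat6bE/E against WT, 1 was called with DESeq2 and 1 without the 3 libraries with Xist, a setting chosen after seeing the data. In Kat6aE/E against Kat6a-/-, 1 was called with no filter on low counts and 1 without those 3 libraries. With the replicate number as a block in place of the litter (replicate block), 2 members were called in Kat6a-/- (Pax2 -0.83, FDR 0.00997, and Pax6 -0.28, FDR 0.0415) and 0 in the other 8 comparisons, as without it. The labels give no pairing, and deviations of embryos with the same number had a mean correlation of 0.04, against -0.013 for different numbers. The correlations of the 3 paralog pairs kept their side of the threshold with DESeq2 size factors and with a prior count of 0.5, at adjusted p from 0.0194 to 0.159 by the permutation test.

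The values with another sign had main values of at most 0.18 in size. With 0 surrogate variables they were, in Kat6b-/- against WT, Pax3 -0.01 and Pax8 0.03, in Kat6aE/E against Kat6a-/- Pax7 0.04, in Kat6bE/E against Kat6b-/- Pax9 -0.02, in Kat6aE/E;Kat6bE/E against Kat6a-/- Pax1 0.21, Pax3 0.03 and Pax7 0.03, and in the departure from the sum Pax6 -0.02 and Pax9 0.07. With edgeR without surrogate variables they were Pax3 -0.03 in Kat6b-/- against WT, Pax7 0 in Kat6bE/E against WT, Pax1 0.24, Pax3 0.02 and Pax7 0.01 in Kat6aE/E;Kat6bE/E against Kat6a-/-, and Pax6 -0.01, Pax7 0.02, Pax8 0.03 and Pax9 0.06 in the departure. With only the libraries compared they were Pax3 -0.02 in Kat6b-/- against WT, Pax7 0.03 in Kat6aE/E against Kat6a-/-, Pax9 -0.02 in Kat6bE/E against Kat6b-/-, Pax1 0.21 and Pax7 0 in Kat6aE/E;Kat6bE/E against Kat6a-/-, and Pax8 and Pax9 0.06 each in the departure. In Kat6bE/E against Kat6b-/-, Pax8 was 0 with DESeq2 size factors and with no litter block, 0.02 with edgeR and with DESeq2, 0.26 with Xist as a covariate and 0.16 without the 3 libraries with Xist. For Kat6aE/E;Kat6bE/E against Kat6a-/-, Pax1 was 0.02 with DESeq2 and 0 with Xist as a covariate. Without the 3 libraries with Xist, Pax7 was 0.02 in Kat6aE/E against Kat6a-/-, Pax9 -0.09 in Kat6aE/E;Kat6bE/E against Kat6a-/-, and Pax2 0 and Pax6 -0.02 in the departure.

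When libraries were left out singly, values crossed 0 as follows. In Kat6a-/- against WT, Pax3 ran from -0.13 to 0.03 and Pax7 from -0.17 to 0.03. In Kat6b-/- against WT, Pax3 ran from -0.04 to 0.04, Pax8 from -0.22 to 0.08 and Pax9 from -0.16 to 0.01. In Kat6aE/E against WT, Pax8 ran from -0.16 to 0.05 and Pax9 from -0.09 to 0.03. In Kat6bE/E against WT, Pax1 ran from -0.17 to 0.08, Pax6 from -0.09 to 0.05, Pax7 from -0.06 to 0.07, Pax8 from -0.27 to 0.13 and Pax9 from -0.06 to 0.04. In Kat6aE/E;Kat6bE/E against WT, Pax6 ran from -0.08 to 0.01. In Kat6aE/E against Kat6a-/-, Pax7 ran from -0.2 to 0.01, and in Kat6bE/E against Kat6b-/-, Pax8 from -0.29 to 0.13 and Pax9 from -0.07 to 0.14. In Kat6aE/E;Kat6bE/E against Kat6a-/-, Pax1 ran from -0.17 to 0.07, Pax7 from -0.18 to 0 and Pax9 from -0.11 to 0.17. In the departure, Pax2 ran from -0.06 to 0.14, Pax6 from -0.02 to 0.1, Pax7 from -0.11 to 0.06 and Pax8 from -0.23 to 0.26.

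The number of all genes called moved more than the members' values. In Kat6a-/- against WT it was 375, and 111 with 0 surrogate variables, 631 with 6, 159 with edgeR without them and 102 to 346 when a library was left out (lowest without WT replicate 2). For Kat6aE/E;Kat6bE/E against WT it was 413, and 0 with 0 surrogate variables, with edgeR without them and with only the libraries compared, 811 with 6, and 115 to 502 in leave-one-out fits (lowest without WT replicate 3). In Kat6b-/- it was 72, with a range of 0 to 169 over all settings, in Kat6aE/E 39 with 0 to 122, in Kat6aE/E against Kat6a-/- 227 with 23 to 416, in Kat6bE/E against Kat6b-/- 5 with 0 to 45, in Kat6aE/E;Kat6bE/E against Kat6a-/- 1 with 0 to 48 and in the departure 0 with 0 to 2. In Kat6bE/E against WT it was 0 under every setting run.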

Other observations

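Only 3 litters held both a WT and a mutant embryo, and the members' levels within them are given as single values with no test. In the litter shared by WT replicate 1 and Kat6a-/- replicate 2, the mutant embryo had 0.48 of its littermate's Pax1 level in CPM, 0.652 of its Pax9 level, 0.755 of Pax2, 0.791 of Pax8 and 0.85 of Pax6, and 0.966 of Pax3 and 1.04 of Pax7. This mutant embryo is one of the 3 with Xist. In the litter of WT replicate 2 and Kat6aE/E replicate 1, the ratios ran from 0.725 (Pax2) to 0.999 (Pax6). In the litter of WT replicate 3 and Kat6b-/- replicate 2, which also has Xist, they ran from 0.912 (Pax6) to 1.45 (Pax8). Kat6bE/E and Kat6aE/E;Kat6bE/E embryos had no WT littermate.

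Pax5 was not called in any comparison. Its log2 fold change in Kat6a-/- embryos was -0.34, with a 95% interval of -1.19 to 0.51, and single embryos of Kat6b-/- (4.62 CPM in replicate 1), Kat6bE/E (9.59 CPM in replicate 2) and Kat6aE/E;Kat6bE/E (10.5 CPM in replicate 4) lay below all WT embryos, the lowest of which had 13.4 CPM.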
